A study of Mus musculus with 312 samples.

Results

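The inhibitors of differentiation Id1, Id2, Id3 and Id4 were described in single mammary basal cells of adult and pregnant mice. These 4 genes were taken by symbol from the 25135 genes used here. They were chosen by their levels, detection and co-detection in these cells, so what follows describes those values, with no test. RNA was measured in 312 single cells from mammary glands of the inbred mouse strain FVB/NJ, with no treatment and no genetic change named. The labels name 237 cells as adult and 75 as pregnancy, and all of them as basal, the outer contractile layer of the duct. Of the adult cells, 112 carry the mark (2) in their title and 125 do not. The labels do not explain the mark.

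The labels name neither animals, age in weeks nor day of pregnancy, so each group was 1 sample and no difference between groups has a replicate check. In the study's text the cells of pregnant mice were total epithelium from mid-pregnancy, and more of them were retained there than the 75 labelled here. Whether these 75 cells belong to that set cannot be told. That they are basal rests on the labels, and no day of pregnancy is taken over from the text. Stage cannot be told apart from capture run. Of the adult basal sort the study states that erythroid, endothelial and immune cells were gated out by surface markers.

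Id proteins carry a helix-loop-helix region, with which they pair with other proteins of that class, but no basic region to hold DNA. They bind E proteins such as those encoded by Tcf3, Tcf4 and Tcf12 and keep them from DNA, which in many tissues holds back differentiation. Signalling by bone morphogenetic proteins (BMPs) is a classic inducer of Id1, Id2 and Id3, and Id4 is known in the mammary gland as a gene of basal cells.

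The part of each gene that encodes the helix-loop-helix is shown because it is what the family shares and because it bears on whether reads could be assigned to the wrong member. Each line gives 120 bases of coding sequence in frame, 5′ to 3′, from exon 1 of the gene in GRCm38, the build to which the authors mapped. Capitals mark the 69 positions that are identical in all 4 genes.

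Id1 (chr2:152736518-152736637, plus strand): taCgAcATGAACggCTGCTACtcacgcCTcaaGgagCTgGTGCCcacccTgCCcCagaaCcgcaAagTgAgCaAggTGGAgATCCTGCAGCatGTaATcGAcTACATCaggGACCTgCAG
Id2 (chr12:25095783-25095902, minus strand): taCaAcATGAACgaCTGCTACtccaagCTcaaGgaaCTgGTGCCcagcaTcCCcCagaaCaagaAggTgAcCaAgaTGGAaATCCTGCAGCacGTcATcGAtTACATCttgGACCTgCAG
Id3 (chr4:136144002-136144121, plus strand): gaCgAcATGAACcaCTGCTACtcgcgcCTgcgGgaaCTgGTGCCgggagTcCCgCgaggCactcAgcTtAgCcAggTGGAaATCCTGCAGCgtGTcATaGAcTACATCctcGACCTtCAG
Id4 (chr13:48261693-48261812, plus strand): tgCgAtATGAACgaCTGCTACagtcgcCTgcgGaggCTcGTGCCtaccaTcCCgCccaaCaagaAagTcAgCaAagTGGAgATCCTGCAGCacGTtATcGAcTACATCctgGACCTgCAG

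Even here the members were separable by reads of 75 bases. Pairs of members were identical at 70.8% of the positions (Id1 with Id3, and Id3 with Id4) to 81.7% (Id1 with Id2). The longest identical run between any pair was 11 to 19 bases, against reads of 75 bases. No window of 75 bases in the transcripts of Id1, Id2 or Id3 occurred in a transcript of another gene. For Id4, 36 of 3775 windows did, all shared with Gm49291, a gene on the opposite strand. Gm49291 and a further antisense gene, A330033J07Rik, overlap 171 of the 3849 exon bases of Id4 in the GENCODE annotation. The counts used RefSeq exons of Id4 (1660 bases), and whether the overlap lies in these was not checked. Whether counting used strand is not stated either. In any counted part of the overlap, reads of Id4 and of its antisense partners cannot be told apart. A330033J07Rik was listed with 0 reads in all 312 cells.

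The genes lie on 4 chromosomes. Id1 (Entrez 15901) spans 152736251 to 152737410 of chromosome 2, Id2 (Entrez 15902) 25093799 to 25097140 of chromosome 12, Id3 (Entrez 15903) 136143497 to 136145755 of chromosome 4 and Id4 (Entrez 15904) 48261228 to 48266026 of chromosome 13. The exon lengths deposited with the counts are 911, 1272, 953 and 1660 bases in the same order.

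Cells entered with 50000 or more reads in the genes used and 1000 or more genes detected. The study states these limits for its adult basal cells and its epithelial cells of pregnant mice. This kept 81 of 112 adult cells with (2), 58 of 125 without it and 71 of 75 pregnancy cells. Median depth was 174910 reads in the first group, 101321 in the second and 230643 in the third. Levels are given as CPM, the reads of a gene scaled to 1000000 reads assigned to the genes used, and as RPKM (CPM per kilobase of exon) where genes are compared with each other. No 2 cells had identical counts. At least 6 of 11 core basal genes reached 100 CPM in 76 of 81, 51 of 58 and 70 of 71 cells, so 12 adult cells and 1 pregnancy cell fell short of the label. Pregnancy cells differed from adult cells in other lists too. At least 3 of 14 proliferation genes reached 100 CPM in 16 of 71 pregnancy cells against 4 of 139 adult cells. The 8 fibroblast genes summed to a median of 561 CPM (from 55.2 to 5782) against 8.90 CPM (from 0 to 39487), with no fibroblast gene at 0 in either stage. At least 3 of these 8 reached 100 CPM in only 3 of 71 pregnancy and 3 of 139 adult cells. Pan-luminal genes (at least 3 of 7) were reached in 25 of 139 adult and 6 of 71 pregnancy cells, mixed luminal genes, which the study names in mixed-lineage basal cells, in 4 and 4, and immediate early genes in 131 and 71. Immune, endothelial, pericyte and Schwann cell lists, of 8 genes each, were reached in 1, 1, 2 and 0 adult cells and in no pregnancy cell. Of these lists Cd3e, Kcnj8 and Foxd3 were at 0 in adult cells, and Cd52, Cd3e, Cdh19, Foxd3 and Gfra3 in pregnancy cells. The median mitochondrial share was 18.4% in pregnancy and 11.4% in adult cells.

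Between the stages the family changed its make-up. Mean Id1 and Id3 were lower in pregnancy cells, at 2.25 against 111 CPM and at 61.9 against 526 CPM. Mean Id4 was higher, at 297 against 47.8 CPM. Mean Id2 was 296 against 324 CPM. A gene was counted as past the fold when its mean was at least 2-fold apart from adult cells together (log2 ratio of mean CPM + 10) and moved the same way against each adult title set. By that rule Id1 and Id3 were lower, where 11.6% of the 4548 genes tested (those that averaged 50 CPM or more in a stage) were lower. Id4 was higher, where 15.6% of those genes were higher. The genes were picked in view of these differences, so nothing is read from their number.

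**Figure D1:**
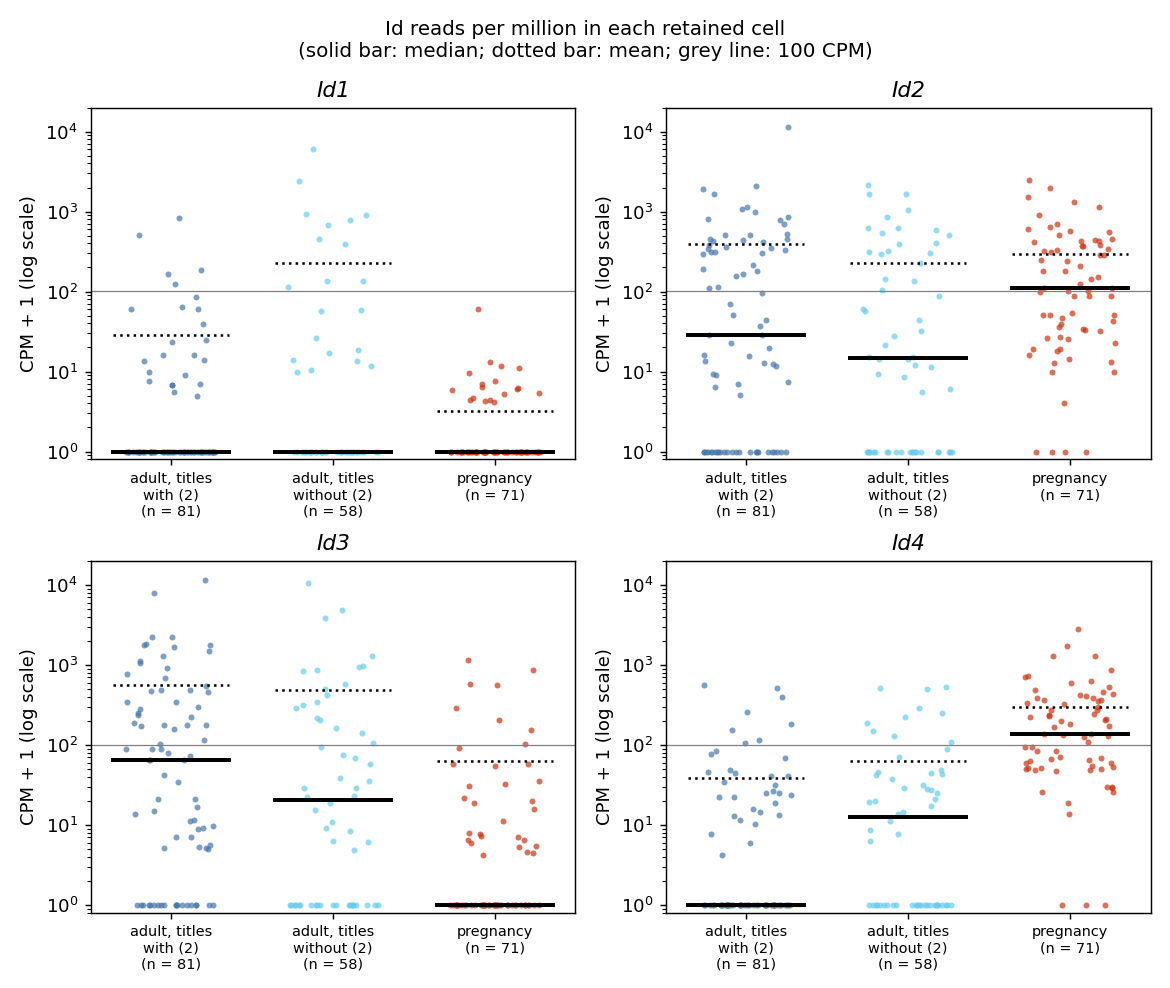
Level of each Id gene in every retained cell, as CPM + 1 on a log scale, for adult cells with (2) (n = 81), adult cells without it (n = 58) and pregnancy cells (n = 71). Each point is 1 cell, solid bars are medians, dotted bars are means and the grey line is 100 CPM. No pregnancy cell lies above the line for Id1, while 41 of 71 do for Id4.

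Id3 had the highest adult mean per length, at 552 RPKM. Its levels ran from 0 to 11604 CPM in adult cells with (2), with a median of 64.8 and a mean of 554 CPM, and from 0 to 10757 CPM in those without it, with a median of 19.6 and a mean of 487 CPM. In pregnancy cells they ran from 0 to 1142 CPM, with a median of 0. The ranges overlapped, with the upper end in pregnancy far below that of either adult set. Id3 reached 100 CPM in 35 of 81 cells (43.2%, 95% Clopper-Pearson interval 32.2 to 54.7%) and in 19 of 58 (32.8%, 21.0 to 46.3%) of the adult sets, but in 8 of 71 pregnancy cells (11.3%, 4.99 to 21.0%). All intervals here cover counting error alone, not variation between animals, and reads were not counted by molecule. The log2 ratio of pregnancy over adult was -2.90, and it was -2.97 and -2.79 against the sets with and without (2). The pooled reads were 13316 in adult cells (exact Poisson interval 13091 to 13544) and 874 in pregnancy cells (817 to 934).

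A few adult cells carried much of the Id3 level, and part of them lacked the basal label's genes. The 5 highest adult cells held 53.3% of its summed CPM. Among these, cells 100 and 7 of the set with (2) had 4 core basal genes each at 100 CPM, and cell 157 of the other set had none, together with 7 of 8 fibroblast genes. Cell 219, at 10757 CPM, had 9 core basal genes. The 12 adult cells with under 6 core basal genes held 36.6% of the adult Id3 sum. In the cells with at least 6 the adult mean was 365 CPM against 62.7 CPM in pregnancy, and the log2 ratio was -2.37. Without the 5 highest cells of each stage the means were 255 and 14.5 CPM and the log2 ratio was -3.43. The direction was thus the same without these cells, while the adult level depended on them. In cells with (2) and at least 6 core basal genes, Id3 averaged 326 RPKM and Id2 316 RPKM, so its lead there was small.

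Id1 was the member with a read in the fewest cells of each group. Its median was 0 CPM in all 3 groups, and it was at 0 in 57 of 81, 37 of 58 and 53 of 71 cells. The highest cell had 821 CPM in the adult set with (2), 6007 CPM in the set without it and 58.9 CPM in pregnancy. Id1 reached 100 CPM in 5 of 81 cells (6.17%, 2.03 to 13.8%) and in 11 of 58 (19.0%, 9.87 to 31.4%) of the adult sets. In pregnancy it did so in 0 of 71 cells, a count that allows at most 4.23% of cells. Pooled reads were 2354 (2260 to 2451) in adult cells and 42 (30.3 to 56.8) in pregnancy cells, of which 19 came from cell 29.

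The size of the Id1 difference was less certain than its direction. The log2 ratio of pregnancy over adult was -3.31, but -1.63 against the set with (2) and -4.27 against the set without it. Cell 219 alone held 38.9% of the adult sum, and the adult mean was 68.3 CPM without it. Cell 169, the second highest at 2394 CPM, had 2 of 11 core basal genes. Cell 156, at 450 CPM, had 5 of them and 3 of 8 endothelial genes. Endothelial genes summed to at most 5476 CPM in adult cells and 367 CPM in pregnancy cells, with medians of 0 and no gene of the list at 0, and no other retained cell had 3 of them. Without all cells that had 3 genes of the endothelial, pericyte, fibroblast, immune or Schwann cell lists, the log2 ratios were -3.32 for Id1 and -2.83 for Id3. Without the 5 highest cells of each stage the log2 ratio was -1.97. Taken as a difference of mean log2 levels it was -0.76, within the fold, where the median of all genes was 0.38. At the depth of 50000 reads to which every cell was thinned, 1 read is worth 20 CPM, and an Id1 read was then left in 22.3% of adult and 8.45% of pregnancy cells. Without thinning these shares were 32.4% and 25.4%, so single reads of Id1 were present in pregnancy cells and high levels were not.

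Id4 went the other way. Its levels ran from 0 to 570 CPM in adult cells with (2), with a median of 0, and from 0 to 526 CPM in those without it, with a median of 11.5 CPM. In pregnancy they ran from 0 to 2816 CPM, with a median of 136 CPM. The ranges overlapped, but 3 of 71 pregnancy cells had no Id4 read against 72 of 139 adult cells. Id4 reached 100 CPM in 8 of 81 (9.88%, 4.36 to 18.5%), 10 of 58 (17.2%, 8.59 to 29.4%) and 41 of 71 cells (57.7%, 45.4 to 69.4%). The log2 ratio was 2.41 against adult cells together, 2.68 against the set with (2) and 2.10 against the other. Pooled reads were 936 (877 to 998) and 4543 (4412 to 4677).

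Cells short of core basal genes held little of Id4. The 12 such adult cells held 1.94% of its adult sum, against 36.6% for Id3 and 19.5% for Id1, and the highest pregnancy cell held 13.4% of the sum there. Without the 5 highest cells of each stage its means were 29.8 and 197 CPM, and the log2 ratio was 2.38. After thinning, an Id4 read was left in 36.7% of adult (28.7 to 45.3%) and 93.0% of pregnancy cells (84.3 to 97.7%).

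Id2 was close in mean and different in spread. Its mean was 391 CPM in adult cells with (2), 230 CPM in those without it and 296 CPM in pregnancy, and the pregnancy mean lay between the adult sets. The log2 ratio of pregnancy over adult was -0.13, with -0.39 against the first set and 0.35 against the second. Its median was higher in pregnancy, at 110 CPM against 27.7 and 13.7 CPM in the adult sets. Cell 33 of the set with (2), at 11399 CPM, held 36.0% of the Id2 sum of that set, and without it the set's mean was 254 CPM. Id2 reached 100 CPM in 35 of 81 (43.2%, 32.2 to 54.7%), 20 of 58 (34.5%, 22.5 to 48.1%) and 37 of 71 cells (52.1%, 39.9 to 64.1%), with overlapping intervals. After thinning, an Id2 read was left in 56.1% of adult (47.5 to 64.5%) and 87.3% of pregnancy cells (77.3 to 94.0%), and these intervals did not overlap. The mean and the share differ in direction, but the log2 ratio was 0.11 without the highest cell of each stage. Without the 5 highest cells of each stage it was -0.01, and it was below 0 in 12 of 15 alternatives tried. The mean difference was thus small and its sign changed when single cells were left out, and no order of the stages is given for Id2.

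Shares after thinning were higher in pregnancy for many genes. Over the 4548 genes the median share of cells with a read was 33.1% in adult and 47.9% in pregnancy, and the median gene was 11.6 percentage points higher in pregnancy. Id2 was 31.2 points higher, above 89.6% of those genes, and Id4 was 56.3 points higher, above 99.5% of them. Id3 was 29.4 points lower, with 0.352% of the genes below it, and Id1 was 13.9 points lower, with 2.02% below it.

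**Figure D2:**
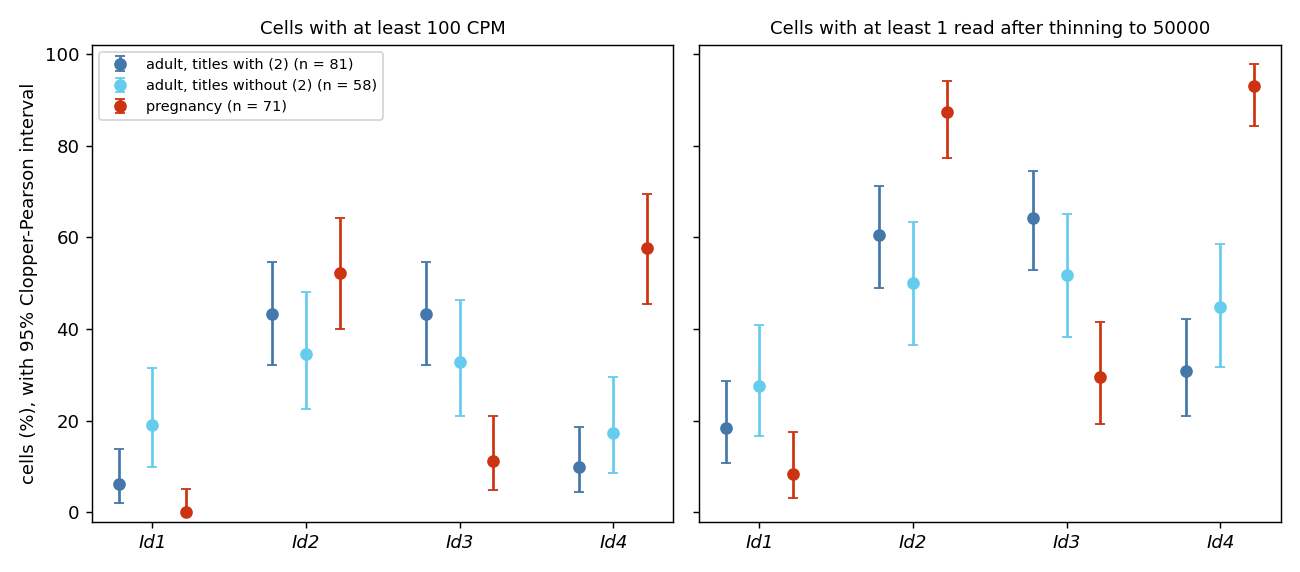
Share of cells with each Id gene, as percent of cells with 95% Clopper-Pearson intervals, at 100 CPM (left) and as at least 1 read after thinning each cell to 50000 reads (right), for the 2 adult title sets and pregnancy. Id4 in pregnancy lies above both adult sets on both measures, and Id3 lies below them.

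The adult title sets differed from each other for Id1. Its mean was 227 CPM in cells without (2) and 28.0 CPM in cells with it, a log2 ratio of 2.64, past the fold in a comparison in which 18.9% of 4578 genes were at least 2-fold higher and 16.7% at least 2-fold lower. Id2, Id3 and Id4 stayed within the fold between the sets, with log2 ratios of -0.74, -0.18 and 0.59. For Id2 this call changed in 2 of 13 alternatives, to -1.02 with median-ratio size factors and -1.03 with reads summed over cells. Without the 5 highest cells of each set the Id1 ratio was 1.65. For Id3 and Id4 the ratios between stages (-2.90 and 2.41) were thus larger in size than those between title sets, whereas for Id1 the title sets were further apart than pregnancy and the set with (2) (-1.63).

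**Figure D3:**
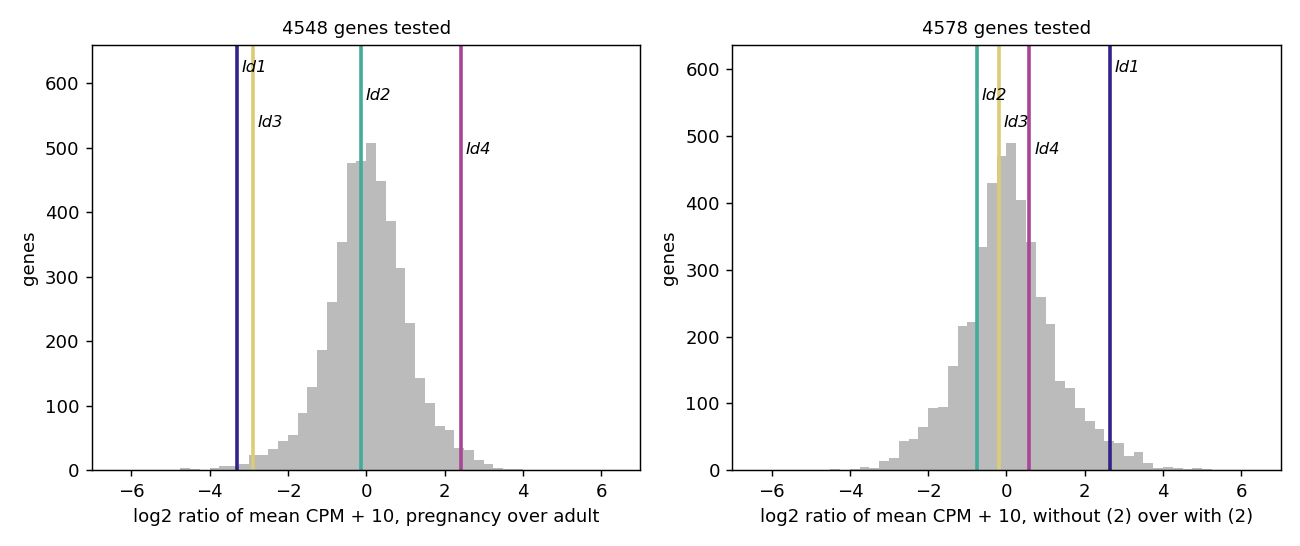
Log2 ratio of mean CPM + 10 for the Id genes (coloured lines) over the distribution for all genes tested (grey bars, number of genes), for pregnancy over adult (left, 4548 genes) and adult cells without (2) over those with it (right, 4578 genes). Id1 and Id3 lie in the lower tail and Id4 in the upper tail of the left distribution, and Id1 lies in the upper tail of the right one.

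Per length, Id3 made up most of the family's mean over all retained adult cells, and Id2 and Id4 most of it in pregnancy cells. The larger share of Id2 came with a smaller sum, since its mean was 255 RPKM in adult and 233 RPKM in pregnancy cells. In adult cells the 4 genes together averaged 957 RPKM, of which Id3 made up 57.7%, Id2 26.6%, Id1 12.7% and Id4 3.00%. In pregnancy cells they averaged 479 RPKM, of which Id2 made up 48.6%, Id4 37.3%, Id3 13.6% and Id1 0.515%. The cell with the median family level was closer, at 341 RPKM in adult and 289 RPKM in pregnancy. The order of adult means was Id3 (552 RPKM), Id2 (255), Id1 (122) and Id4 (28.8), and the order in pregnancy was Id2 (233), Id4 (179), Id3 (65.0) and Id1 (2.47). In adult cells with at least 6 core basal genes the means were 383 RPKM for Id3, 267 for Id2, 107 for Id1 and 30.9 for Id4. Id3 was still first there, but it was not most of the family.

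The make-up also differed cell by cell. Among 129 adult cells with any Id read, the member highest per length was Id3 in 53 (41.1%, 32.5 to 50.1%), Id2 in 43, Id4 in 17 and Id1 in 16. Among the 71 pregnancy cells, all of which had an Id read, it was Id2 in 36 (50.7%, 38.6 to 62.8%), Id4 in 30 (42.3%, 30.6 to 54.6%), Id3 in 4 and Id1 in 1. The counts of Id2 and Id3 in adult cells and of Id2 and Id4 in pregnancy cells had overlapping intervals, so neither pair can be put in order. Each adult set had Id3 first, in 34 of 75 and 19 of 54 cells.

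**Figure D4:**
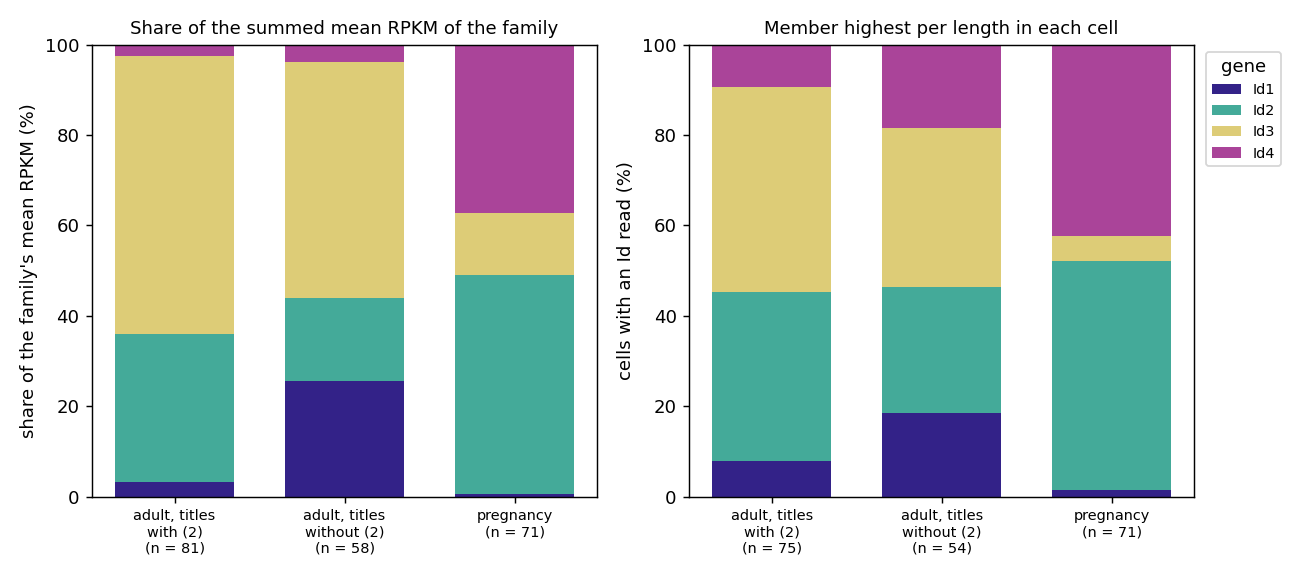
Make-up of the Id family in the 2 adult title sets and pregnancy, as each gene's percent of the summed mean RPKM (left) and as the percent of cells with an Id read in which each gene was highest per length (right). Id3 is the largest segment in both adult sets and Id2 and Id4 together fill most of the pregnancy bars.

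Most cells had few members at 100 CPM. No member reached it in 42 of 139 adult (30.2%, 22.7 to 38.6%) and 16 of 71 pregnancy cells (22.5%, 13.5 to 34.0%). At least 2 members did in 40 of 139 (28.8%, 21.4 to 37.1%) and 28 of 71 cells (39.4%, 28.0 to 51.7%), and the intervals overlapped. In no cell did all 4 reach it. The commonest pair was Id2 with Id3 in adult cells, in 19 of 81 and 9 of 58 of the sets, and Id2 with Id4 in pregnancy cells, in 23 of 71. Id1 and Id4 reached 100 CPM together in 0 of 139 adult cells, a count that allows at most 2.16%, while Id1 did so in 16 of them and Id4 in 18. Both were infrequent, and Id4 reached it in 14.6% (8.91 to 22.1%) of the 123 adult cells without Id1. A count of 0 among the 16 cells with Id1 therefore does not show that the 2 genes exclude each other. In pregnancy cells no such pair could occur, since Id1 reached it in none.

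Within groups the members were weakly related. Spearman correlations of CPM between members over cells ran from -0.17 (Id1 with Id4, adult cells without (2)) to 0.33 (Id2 with Id4, adult cells with (2)). In pregnancy cells they ran from -0.13 for Id1 with Id4 to 0.24 for Id1 with Id3. Cells of a group share library preparation and depth range, and counts are sparse, so these are descriptions. For Id3 and Id4 the correlation with assigned reads ran from -0.17 to 0.079, and the highest for any member was 0.27, for Id1 in adult cells with (2).

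Id levels in pregnancy cells were also read by proliferation genes. In the 16 cells with at least 3 such genes Id4 averaged 284 CPM and in the other 55 cells 300.5 CPM, and it reached 100 CPM in 9 of 16 (56.2%, 29.9 to 80.2%) and 32 of 55 (58.2%, 44.1 to 71.3%). Id2 averaged 223 and 317 CPM, with medians of 112 and 110 CPM. Id3 averaged 59.5 and 62.6 CPM. Without cells that had 3 proliferation genes the log2 ratios of pregnancy over adult were -2.92 for Id3 and 2.43 for Id4.

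The E proteins, with which Id proteins pair, were measured beside them, as were BMP pathway genes. Of all 4548 genes 27.1% were past the fold in either direction. Of the 3 genes, Tcf4 and Tcf12 passed the minimum of 50 CPM in a stage and neither was past the fold. Tcf4 averaged 195 CPM in adult and 251 CPM in pregnancy cells, and Tcf12 130 and 176 CPM. The adult sets differed for Tcf4, at 108 CPM with (2) and 317 CPM without it (log2 ratio 1.47, past the fold), and the pregnancy mean lay between them. Per length Tcf4 averaged 25.4 and 32.6 RPKM and Tcf12 25.8 and 34.8 RPKM, below the mean of Id2 in both stages (255 and 233 RPKM) and of Id3 in adult cells (552 RPKM). In pregnancy cells the mean of Id3 was 65.0 RPKM, but 15.2 RPKM without its 5 highest cells, and its median was 0 RPKM against 20.0 RPKM for Tcf4 and 3.75 RPKM for Tcf12. Means of Tcf4 and Tcf12 were not trimmed in this way. Id1, with a median of 0 RPKM in both stages, averaged 122 RPKM in adult cells, above Tcf4 and Tcf12, and 2.47 RPKM in pregnancy cells, below them. Id4, at 28.8 RPKM in adult cells, was close to both, and at 179 RPKM in pregnancy cells it was above both. Of 14 other helix-loop-helix factors, Hes1 (104 and 71.6 CPM) and Bhlhe40 (476 and 395 CPM) passed the minimum, within the fold. Between the adult title sets 1 of the 14 was past the fold, lower in cells without (2), where 16.7% of 4578 genes were lower.

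The BMP pathway was followed through its ligands, receptors, Smads, feedback inhibitors and secreted antagonists, and all genes of these lists that passed the minimum are named. None of 10 BMP ligands passed it, the nearest being Bmp7, at 48.0 CPM in adult and 45.3 CPM in pregnancy cells. Of 7 receptors 4 passed. Bmpr1a, a type I receptor, averaged 134 and 245 CPM, Acvr1 39.6 and 62.2 CPM and Acvr2a 62.7 and 64.7 CPM, all within the fold. Acvrl1 was lower, at 64.8 and 0.577 CPM, but adult cell 43 carried nearly all of it, and without that cell the adult mean was 3.25 CPM.

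Of 4 Smads, which carry the BMP signal to the nucleus, Smad1 (144 and 110 CPM), Smad4 (70.9 and 79.9 CPM) and Smad5 (51.3 and 39.7 CPM) passed, within the fold. Of 5 feedback inhibitors Smad7 (402 and 479 CPM), Bambi (55.6 and 70.6 CPM) and Smurf2 (75.2 and 145 CPM) passed, also within it. Among 11 secreted antagonists, Sostdc1, which binds BMPs and modulates Wnt signalling, was past the fold. It averaged 28.4 CPM in adult and 220 CPM in pregnancy cells, a log2 ratio of 2.58, and reached 100 CPM in 5 of 139 and 28 of 71 cells. Fst, which encodes follistatin, averaged 508 and 997 CPM with a log2 ratio of 0.96, just under the fold. Crim1 (84.0 and 104 CPM) and Twsg1 (50.2 and 101 CPM) were within it. Over the 4 antagonists that passed the minimum the median log2 ratio was 0.92, against 0.053 over the 4548 genes that passed it. Over all 11, most of them under the minimum, it was 0.050. The adult means of these lists pool the 2 title sets, between which some of the genes were past the fold. With a minimum of 50 CPM in either set, 3 receptors and 1 ligand were lower in cells without (2). Higher there were 1 Smad, 2 feedback inhibitors and 1 antagonist. Of all 4578 genes 16.7% were lower and 18.9% higher.

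**Figure D5:**
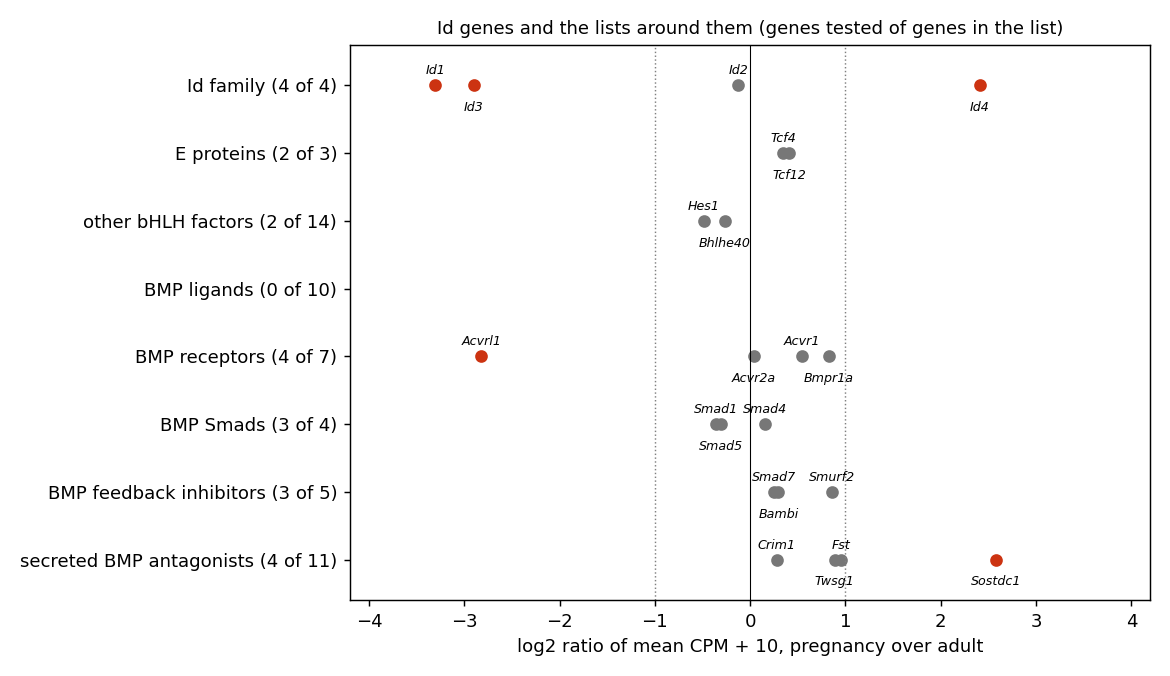
Log2 ratio of mean CPM + 10, pregnancy over adult, for the Id genes and the E protein, helix-loop-helix and BMP pathway genes that averaged at least 50 CPM in a stage. Red points are past the fold, dotted lines are 2-fold. Of the genes outside the Id family, Acvrl1 lies to the left and Sostdc1 to the right of the lines and the others lie between them.

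Of 13 Id partners and reported targets, Cdkn1a, Cdkn1c and Rbl2 passed the minimum. Cdkn1a, a cell cycle inhibitor, averaged 468 and 400.0 CPM, and Cdkn1c 54.2 and 103 CPM, both within the fold. Rbl2, a relative of the retinoblastoma gene, was lower, at 50.1 and 19.1 CPM with a log2 ratio of -1.05, but its adult mean was 26.0 CPM without cell 150.

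Among the marker lists used to describe the cells, other genes were past the fold between stages. Of all 4548 genes 15.6% were higher in pregnancy and 11.6% lower. The minimum was passed by 11 core basal, 4 mixed luminal, 6 proliferation, 13 immediate early, 4 fibroblast and 1 pericyte genes. It was also passed by 3 pan-luminal, 2 immune and 1 Schwann cell genes, none of them past the fold. In the core basal list Mylk, Myh11 and Trp63 were higher in pregnancy and Krt17 and Cxcl14 lower. Csn1s2a, Csn2 and Csn3, which encode caseins of milk, were higher in the mixed luminal list, Mki67, Top2a, Ccnb2, Bub1, Cenpe and Rrm2 in the proliferation list, Jun in the immediate early list and Pdgfra and Dcn in the fibroblast list. Dusp1 and Mcam, of the immediate early and pericyte lists, were lower. Over all 8 fibroblast genes the median log2 ratio was -0.72, and over the 4 that passed the minimum it was 0.36. Over all 8 mixed luminal genes it was 0.31, and over the 4 that passed the minimum 4.58. The mixed luminal genes summed to a median of 72.2 CPM and at most 190939 CPM in pregnancy cells. At least 3 of them reached 100 CPM in 4 of 71 pregnancy cells. The part of these differences in the Id levels was not tested.

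The genes whose levels were most like each Id gene were weakly so. For each Id gene, genes detected after thinning in at least 25% of the cells of each group were ordered by their smallest Spearman correlation within the 3 groups, over 2662 genes. The 5 nearest to Id2 were Jarid2, Msrb3, Slc6a6, Uqcc2 and Vkorc1, with smallest correlations from 0.28 to 0.20. Those nearest to Id3 were Safb, Synpo, S100a13, Tuba4a and Srpk1, from 0.22 to 0.18, and those nearest to Id4 were Ube2r2, Tm9sf3, Sema6d, Hsp90b1 and Zfp367, from 0.24 to 0.18. Id1 was detected in 8.45% to 27.6% of the cells of a group and was not ranked. In thinned cells, 2, 0 and 2 of these 5 genes stayed among the 5 nearest to Id2, Id3 and Id4.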

How the data were processed

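The authors captured sorted mammary cells on the Fluidigm C1, made Nextera XT libraries and sequenced them on a NextSeq 500. Per the study's methods and the submitters' processing notes, they mapped read pairs to mm10 with Subread 1.5.0 and assigned them with featureCounts and the built-in RefSeq annotation. The deposited values are raw counts, each a whole number of read pairs for 1 Entrez gene in 1 cell, without molecular identifiers. The use of strand is not given in the sources used here.

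Symbols came from the RefSeq annotation of GRCm38 (25275 of 27179 IDs, the others holding 1.66% of reads). After 15 mitochondrial and 125 ribosomal protein genes were left out, 25135 genes remained. From the counts CPM and RPKM were computed with Python 3.11.15 and numpy 2.4.6. Intervals are exact at 95% (scipy 1.17.1). For a share of 0 the limit is 3 counts of the total. Retained cells had 51464 to 405910 assigned reads. Ratios used a pseudocount of 10 CPM, and cells were thinned without replacement to 50000 reads. Ratios, the fold rule and the ranking of nearest genes were run on simulated counts with planted changes. These had a milder spread between cells than the Id genes and no difference between title sets. They therefore do not show how means carried by few cells behave. No doublet caller was run. According to the study, captured cells were inspected by microscope.

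Groups follow the labels. Each group is 1 sample, so no test was made. Genes were named when they were Id genes, listed genes past the fold, or among the 5 nearest to an Id gene. Other listed genes are named where they passed 50 CPM, and Bmp7 and single cells were singled out after their values were seen. The members, lists and rules were chosen with earlier results of these data known. Coding sequences and spans are from GENCODE M21 on GRCm38. The deposited table that joins all cells holds the same counts and was not used. Alternatives are given in the closing section.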

Additional observations from a re-analysis of the deposited data

Results flagged for a closer look

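Id reads were also present in cells that no comparison used because they had too few reads or genes. In the 98 adult cells left out, which together held 1171741 assigned reads, there were 12 reads of Id1, 803 of Id2, 137 of Id3 and 183 of Id4, all above the 3 reads that a count of 0 allows. Per 1000000 reads this was 10.2 for Id1 and 117 for Id3, against 107 and 604 in the adult cells retained, and 685 for Id2 and 156 for Id4, against 331 and 42.5. For Id2, 341 of the 803 reads came from 1 cell. In the 4 pregnancy cells left out, with 93619 assigned reads, there were 30 reads of Id2, 11 of Id3 and 45 of Id4. Per 1000000 reads these were 320 (exact Poisson interval 216 to 457), 117 (58.7 to 210) and 481 (351 to 643), against 306, 53.3 and 277 in the pregnancy cells retained. Among the cells left out, Id3 was thus not lower in pregnancy than in adult cells (117, 98.2 to 138). Of its 11 reads in pregnancy, 9 came from 1 cell. Id4 was higher in pregnancy there too, against 156 (134 to 181) in adult cells.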

How the results depend on the processing

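Id3 was lower and Id4 higher in pregnancy, by at least 2-fold, under all 15 alternatives tried for each, with log2 ratios from -3.43 to -1.81 and from 1.42 to 2.71. Id1 was lower under all 15, and at least 2-fold in 14. Id2 stayed within the fold under all 15, with ratios from -0.45 to 0.99. Of 177 alternative values 121 were close to those reported, within 1.5-fold for ratios and counts and within the interval for shares. The ratio of Id1 was -5.11 with a pseudocount of 1 CPM, -1.63 against adult cells with (2) and -4.27 against those without. A pseudocount of 100 CPM gave -1.05 for Id1, -1.95 for Id3, 1.42 for Id4, and 1.35 for Id1 between title sets. Means of log2 levels gave -0.76 for Id1, 0.99 for Id2, -1.81 for Id3, and 0.74 for Id1 between title sets, and shifted the median gene to 0.38. Without the 5 highest cells of each group, an alternative added after seeing the data, Id1 was at -1.97 between stages and 1.65 between title sets, and Id3 at -0.99 between title sets. The latter was 0.69 with at least 100000 reads and 1500 genes per cell, and 0.51 without cells short of core basal genes. The cause of these shifts was not tested. The direction of Id3 between title sets therefore has no fixed sign.

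Shares depend on what counts as detected. At 10 CPM the adult shares of Id1, Id2, Id3, Id4 and of at least 2 members were 25.2, 59.7, 59.7, 43.2 and 65.5%, and the pregnancy shares of Id2, Id3, Id4 and of at least 2 members were 90.1, 28.2, 95.8 and 90.1%. At 500 CPM the adult shares were 5.76, 17.3, 18.7, 3.60 and 6.47%, and the pregnancy shares of Id2, Id4 and of at least 2 members were 16.9, 14.1 and 2.82%. With 1 read after thinning the adult shares were 22.3, 56.1, 59.0, 36.7 and 59.7%, and the pregnancy shares of Id1, Id2, Id3, Id4 and of at least 2 members were 8.45, 87.3, 29.6, 93.0 and 88.7%. With 1 read and no thinning they were 32.4, 66.9, 71.2, 48.2 and 74.1% in adult and 25.4, 94.4, 45.1, 95.8 and 95.8% in pregnancy cells. Under each, Id3 was lower and Id4 higher in pregnancy. Of the 5 genes nearest to an Id gene, 2 for Id2, 0 for Id3 and 2 for Id4 were found again in thinned cells.

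No paired analysis was possible because the numbers that groups share in the labels only count cells and each group is 1 sample. Depth limits Id1 most, since 1 read is worth 20 CPM in a cell of 50000 reads, while pregnancy cells with an Id1 read had a median of 5.14 CPM.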
